A study of Mus musculus with 8 samples.

Results

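The genes that make, store and break down the monoamines dopamine, noradrenaline and serotonin were followed in AtT-20 cells, a mouse pituitary corticotrope line. The 9 genes were listed by name, out of 55401 genes in the deposited tables. They are Th, Tph1, Tph2 and Ddc for synthesis, Gch1 for a synthesis cofactor, Slc18a1 and Slc18a2 for storage, and Maoa and Maob for breakdown. The question was whether the fall of Ddc during tamoxifen treatment was alone or shared by the pathway. The list was chosen by the fall of Ddc in these same libraries, so the values of Ddc are given as a description, with no test.

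All 8 libraries came from cells with the genotype ER-Pax7, an introduced form of the transcription factor Pax7 that tamoxifen activates. There were 4 groups of 2 libraries, at 0, 24, 48 and 72 h of tamoxifen, and the 0 h libraries are the untreated state of the same line. RNA was taken from whole cultures and depleted of ribosomal RNA before sequencing. Cells given vehicle for matched hours were not used here, so tamoxifen itself, ER-Pax7 activation and hours in culture cannot be told apart. The dose of tamoxifen, and whether the line is a single clone or replicates were separate cultures, are not stated in the labels.

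Monoamine synthesis starts with a hydroxylase that sets which amine is made: Th hydroxylates tyrosine toward dopamine, and Tph1 and Tph2 hydroxylate tryptophan toward serotonin. Ddc, the aromatic amino acid decarboxylase, then removes the carboxyl group in both branches with pyridoxal phosphate as its cofactor, while the hydroxylases need tetrahydrobiopterin, whose synthesis Gch1 begins. Vesicular transporters load the amines into granules or vesicles, and the monoamine oxidases Maoa and Maob degrade them in the cell.

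Ddc (ENSMUSG00000020182.16) lies on the minus strand of chromosome 11, from 11814101 to 11898144 in GRCm38, with 10 annotated transcripts in 22 merged exons. RefSeq places its transcripts at 2 starts, 7736 bases apart. In rat and human, a distal start serves non-neuronal tissue and a proximal start serves neurons. The 250 bases before each start are shown because Ddc carries the main change; they are written 5′ to 3′ on the strand of the gene, from RefSeq on GRCm38.p6, the distal one from chr11:11898145-11898394 and the proximal one from chr11:11890409-11890658. Capitals mark letters that matched a searched motif on either strand.
Ddc distal start: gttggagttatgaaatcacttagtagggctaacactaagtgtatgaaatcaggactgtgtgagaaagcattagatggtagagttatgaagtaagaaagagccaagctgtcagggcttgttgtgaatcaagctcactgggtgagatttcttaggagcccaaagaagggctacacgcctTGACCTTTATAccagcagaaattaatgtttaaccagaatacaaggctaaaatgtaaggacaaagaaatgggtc
Ddc proximal start: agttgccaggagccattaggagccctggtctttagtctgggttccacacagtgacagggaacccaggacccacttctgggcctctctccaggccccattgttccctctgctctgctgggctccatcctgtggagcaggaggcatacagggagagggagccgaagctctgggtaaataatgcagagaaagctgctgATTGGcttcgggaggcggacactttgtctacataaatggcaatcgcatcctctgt

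In the distal sequence, the capitals are a TATA box (TATAAA) and an overlapping Nr4a response element (AAAGGTCA), both read on the opposite strand. Their first letters lie 68 and 73 bases before the start. In the proximal sequence the capitals are a CCAAT box read on the opposite strand, with its first letter 55 bases before the start. Of 32851 mouse promoters cut to the same length, 12.4% held TATAAA, 33.9% held CCAAT and 1.34% held AAAGGTCA. The cyclic AMP response element TGACGTCA, held by 1.55% of promoters, the paired homeodomain palindrome, held by 0.384%, and the HNF1 site were also searched on both strands and had no match in either Ddc sequence. The exact HNF1 pattern occurred in only 3 of the 32851 promoters (0.00913%). Its miss here therefore does not show that Ddc lacks an HNF1 site, and inexact matches were not searched. The tables hold a single value per gene and library, so which start the reads came from was not tested. A match is only a match of letters.

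The deposited value is a signal, the authors' normalized read coverage per exonic base, which allows levels to be compared between genes. On this scale Ddc was the most abundant of the 9 genes, and 97.3% of all genes had a lower mean. Gch1 had a mean of at least 1 as well. Slc18a1, Maoa and Slc18a2 had means of 0.1 to 1, Tph1, Th and Tph2 had means under 0.1, and Maob was listed at 0. The plot of levels shows these genes among the other genes of the pathway.

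**Figure D1:**
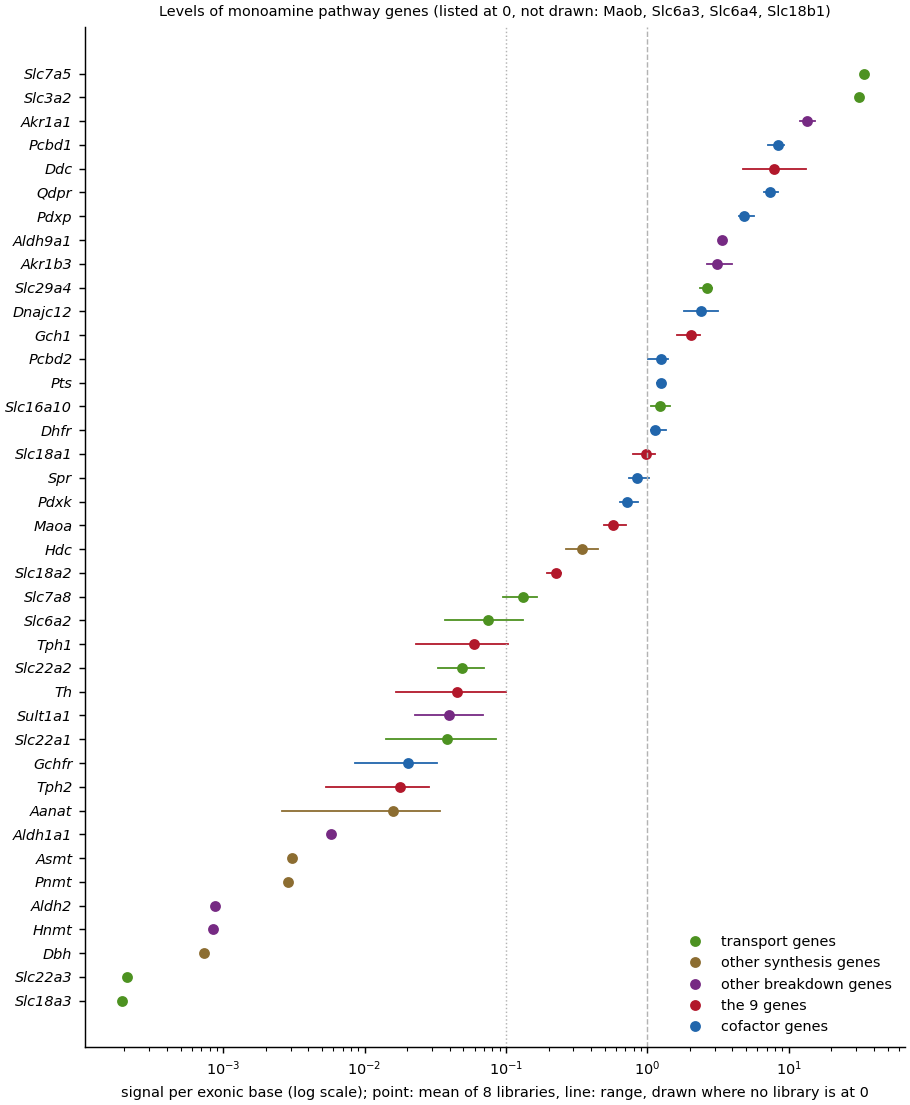
Mean signal per exonic base over the 8 libraries, on a log axis, for the monoamine genes and the listed genes of cofactor supply, other synthesis, transport and breakdown; points are means, lines are ranges over libraries, and the dashed and dotted lines stand at signals of 1 and 0.1. Ddc lies near the top while Tph1, Th and Tph2 lie under 0.1.

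The hydroxylases that feed Ddc were all close to the floor of the data. Tph1, the tryptophan hydroxylase of peripheral tissue and pineal gland, had signals of 0.103 and 0.0927 at 0 h, 0.0783 and 0.0339 at 24 h, 0.0319 and 0.0734 at 48 h, and 0.0386 and 0.0230 at 72 h. Every later library was below both 0 h libraries, and the 72 h mean was 31.5% of the 0 h mean, on values too low for a test here. At 24, 48 and 72 h, 40.5%, 44.2% and 47.6% of genes did not overlap their 0 h libraries, in either direction. That share is over genes with a mean of at least 0.1. No share was worked out for all later libraries at once, here or for the genes below. Th, which sets the pace of dopamine synthesis, ranged from 0.0166 to 0.0996 with both extremes at 48 h, and Tph2, the neuronal tryptophan hydroxylase, ranged from 0.00532 to 0.0284. Their replicates spread as widely as their times did.

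Ddc had signals of 13.3 and 12.5 at 0 h, 7.26 and 7.29 at 24 h, 7.12 and 6.31 at 48 h, and 4.75 and 4.84 at 72 h. Both libraries of every later time were below both 0 h libraries, the 24 h and 48 h libraries lay together, and the 72 h libraries were lowest. The means over 0, 24, 48 and 72 h were 12.9 ± 0.610, 7.27 ± 0.0207, 6.71 ± 0.568 and 4.80 ± 0.0693 (SD, n = 2 each). As ratios to the 0 h mean, the 3 later means are 0.564, 0.521 and 0.372. Most of the fall was thus present at 24 h, with little between 24 and 48 h and a further step by 72 h. In bulk RNA, fewer cells with Ddc and less Ddc RNA per cell cannot be told apart.

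**Figure D2:**
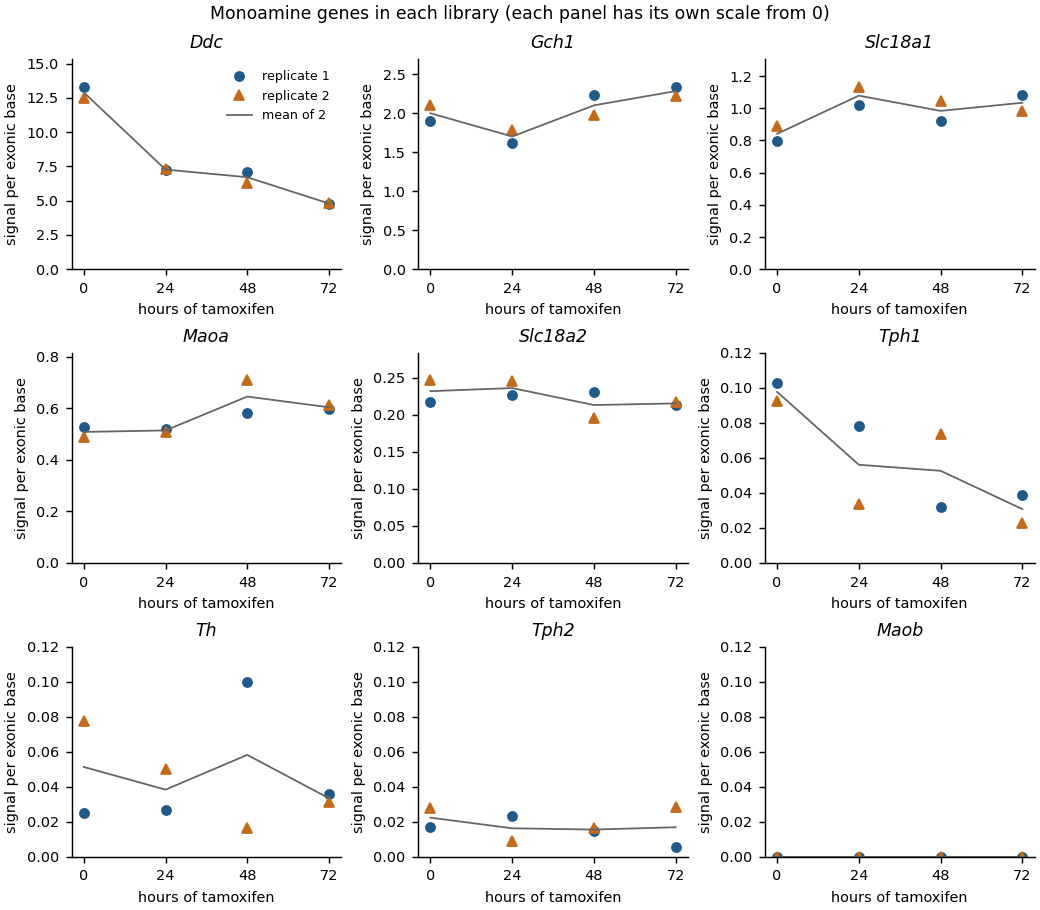
Signal per exonic base of each monoamine gene against hours of tamoxifen, with a point per library and a line through the mean of 2; each panel has its own scale starting at 0. Ddc falls at 24 h and again at 72 h, Gch1 and Slc18a1 end above their 0 h values, and Maob is listed at 0 throughout.

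Gch1 makes the first intermediate of tetrahydrobiopterin. It had signals of 1.89 and 2.10 at 0 h, 1.61 and 1.79 at 24 h, 2.23 and 1.97 at 48 h, and 2.34 and 2.22 at 72 h. Both 24 h libraries lay below the 0 h libraries, the 48 h libraries overlapped them and both 72 h libraries lay above them. The differences from 0 h in log2(signal + 1) were -0.15, 0.05 and 0.13 at 24, 48 and 72 h, with limma adjusted p = 0.377, 0.879 and 0.380, so none passed the threshold of 0.05. The 95% interval at 72 h ran from -0.02 to 0.28. Ddc stood at 2.03 and 2.18 times the signal of Gch1 in the 72 h libraries, against 7.04 and 5.93 times in the 0 h libraries.

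The storage genes did not pass the test either. Slc18a1, the vesicular monoamine transporter of endocrine cells, had signals of 0.794 and 0.889 at 0 h, 1.02 and 1.14 at 24 h, 0.923 and 1.04 at 48 h, and 1.08 and 0.984 at 72 h. Every later library lay above both 0 h libraries, which for single comparisons of 2 libraries with 2 is common here: groups did not overlap, in either direction, for 40.5% of genes at 24 h, 44.2% at 48 h and 47.6% at 72 h. On the log2(signal + 0.1) scale, used for genes with a mean under 1, the differences of Slc18a1 from 0 h were 0.32, 0.20 and 0.27 (limma adjusted p = 0.335, 0.592 and 0.305). The 95% interval at 72 h ran from 0.03 to 0.51, not adjusted for the number of genes. Slc18a2, the vesicular transporter of neurons and mast cells, had signals of 0.217 and 0.247 at 0 h, 0.226 and 0.246 at 24 h, 0.230 and 0.196 at 48 h, and 0.213 and 0.218 at 72 h. Its 24, 48 and 72 h libraries overlapped those at 0 h, with log2 differences of 0.02, -0.08 and -0.07 (limma adjusted p = 0.973, 0.901 and 0.873).

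Of the oxidases, Maoa was measured and Maob, its neighbour on chromosome X, was listed at 0 in every library. Maoa had signals of 0.527 and 0.491 at 0 h, 0.521 and 0.509 at 24 h, 0.583 and 0.710 at 48 h, and 0.596 and 0.613 at 72 h. The 24 h libraries lay within the range of the 0 h libraries, and the 48 and 72 h libraries lay above it. Its log2(signal + 0.1) differences from 0 h were 0.01, 0.29 and 0.21 (limma adjusted p = 0.977, 0.425 and 0.446), with a 95% interval at 72 h from -0.04 to 0.47.

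Beyond Ddc, then, 0 of the 4 genes of the list with a mean of at least 0.1 were called at any time. The background for this count is low: in the same limma fit on 17871 genes, 0.162% of genes were called at 24 h, 0.548% at 48 h and 1.57% at 72 h. Before adjustment, 2 of the 4 had a limma p under 0.05 at 24 h (Gch1, lower, and Slc18a1, higher), 1 at 48 h (Maoa, higher) and 1 at 72 h (Slc18a1, higher), as did 2042, 1775 and 2499 of all genes in the fit. The median log2(signal + 0.1) difference of these 4 genes was 0.02, 0.13 and 0.20 at 24, 48 and 72 h, against 0.01, 0.00 and 0.01 over all genes in the fit. At 72 h, Slc18a1, Maoa and Gch1 had positive differences and Slc18a2 a negative one. A p that misses the threshold does not show that a gene did not change.

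The wider pathway was described from a list of 35 genes for cofactors, other synthesis steps, transport and other breakdown steps, of which 14 had a mean of at least 1. Of these 14, 0 were called at 24, 48 or 72 h. Of the 9606 genes in this limma fit on log2(signal + 1), 0.229% were called at 24 h, 0.552% at 48 h and 2.01% at 72 h. Before adjustment, 4, 5 and 3 of the 14 had a limma p under 0.05 at 24, 48 and 72 h, as did 1269, 1010 and 1505 of all tested genes. The median difference of the 14 genes was -0.03, -0.07 and -0.06 at 24, 48 and 72 h, against 0.01, 0.00 and 0.01 over all tested genes. At 72 h, 12 of the 14 had a negative and 2 a positive difference, while 5121 of all 9606 genes had a positive one. Over 22 measured genes, which are the 4 above and 18 of the 35, the lowest log2(signal + 0.1) difference was that of Dnajc12 at each time, at -0.31, -0.36 and -0.46. Ddc stood at -0.82, -0.93 and -1.41 on that scale, and 0 of the 22 were at or below it at 24, 48 or 72 h. Among all 17871 genes, ranked from the lowest difference, Ddc was number 75, 49 and 22. The fall of Ddc in these libraries chose the list, so its place in these orders is a description and no test.

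**Figure D3:**
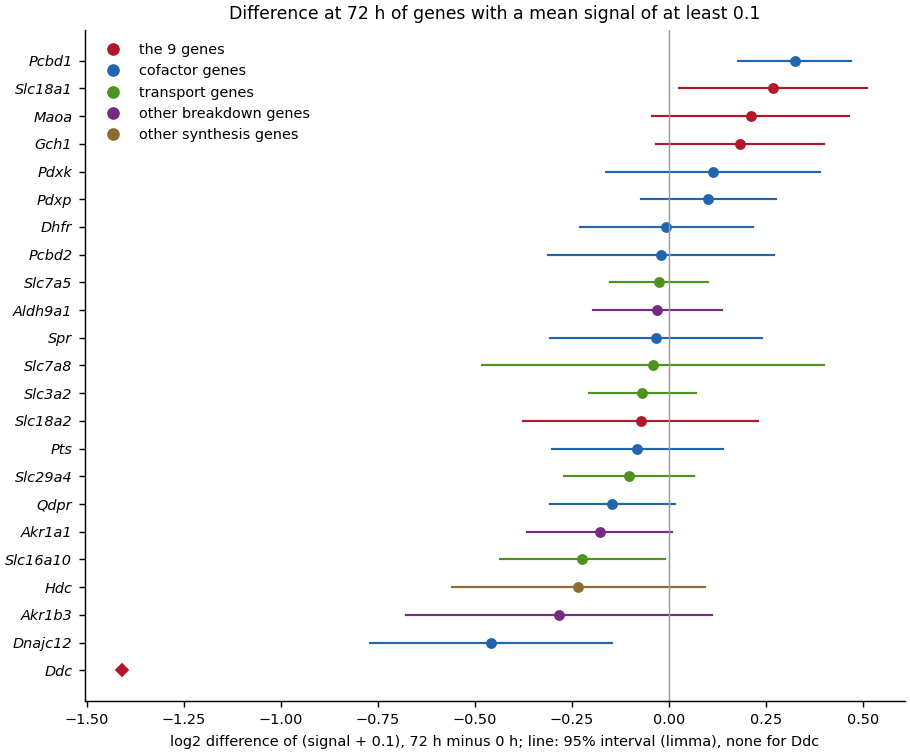
Difference in log2(signal + 0.1) between 72 h and 0 h for the monoamine genes and listed pathway genes whose mean signal was at least 0.1; points are limma estimates, and lines are 95% intervals not adjusted for the number of genes, with none drawn for Ddc. Ddc, whose fall chose the list, lies at -1.41, apart from the other genes drawn, which lie between -0.46 and 0.32.

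Of the cofactor genes on the list, 7 were tested, and limma called 0 of them at 24, 48 or 72 h. Pcbd1, which recycles tetrahydrobiopterin, averaged 9.16 ± 0.140 at 72 h and 7.30 ± 0.280 at 0 h (limma log2 difference 0.29, adjusted p = 0.0537; without either 24 h library the adjusted p was 0.0431). Qdpr, the reductase of the same recycling path, averaged 7.34 ± 0.191 at 72 h and 8.13 ± 0.333 at 0 h, with all later libraries below both 0 h libraries (limma log2 difference -0.13, adjusted p = 0.363). Dnajc12, a co-chaperone of the aromatic amino acid hydroxylases, averaged 2.12 ± 0.438 at 72 h and 2.93 ± 0.287 at 0 h (limma log2 difference -0.34, adjusted p = 0.145). Pdxp, a phosphatase that removes pyridoxal phosphate, ranged from 4.48 to 5.72 over the 8 libraries.

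Of the transport and other breakdown genes, 7 had a mean of at least 1, and limma called 0 of these at 24, 48 and 72 h. Before adjustment, 0, 2 and 1 of the 7 had a limma p under 0.05, as did 1269, 1010 and 1505 of all 9606 genes in the fit. The share of those genes called was 0.229%, 0.552% and 2.01%. Slc7a5 and Slc3a2, the chains of the carrier that brings aromatic amino acids and L-DOPA into cells, ranged from 32.9 to 36.0 and from 30.2 to 33.4. Slc29a4, a plasma membrane monoamine transporter, ranged from 2.37 to 2.86, and Slc16a10, an aromatic amino acid carrier, from 1.06 to 1.45. The dopamine and serotonin reuptake transporter genes Slc6a3 and Slc6a4 were listed at 0. The noradrenaline transporter gene Slc6a2 had signals of 0.0413 and 0.0371 at 0 h, 0.0583 and 0.0761 at 24 h, 0.132 and 0.0841 at 48 h, and 0.0802 and 0.0861 at 72 h, so every later library lay above both 0 h libraries, on values too low for a test here. Akr1a1, Akr1b3 and Aldh9a1, which act on the aldehydes that the oxidases leave, ranged from 12.01 to 15.3, from 2.65 to 3.95 and from 3.27 to 3.56.

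Genes of other amine syntheses were scarce. Hdc, which makes histamine, ranged from 0.267 to 0.448, and Aanat, Asmt, Dbh and Pnmt, which act on serotonin, dopamine or their products, had means under 0.1. Hdc also belongs to the group II decarboxylases, the enzyme family of Ddc. Of the 5 other listed members of that family, Gadl1 averaged 0.868 ± 0.0328 at 72 h and 1.002 ± 0.170 at 0 h, Csad 0.827 ± 0.127 at 72 h and 0.895 ± 0.0776 at 0 h, and Gad1 and Gad2 had means under 0.1. None of the 3 with a mean of at least 0.1 was called by limma at 24, 48 or 72 h. Of all 17871 genes in that fit, 0.162%, 0.548% and 1.57% were called. Before adjustment, 2, 0 and 0 of the 3 had a limma p under 0.05, as did 2042, 1775 and 2499 of the 17871.

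The cells were checked against marker genes. Of 8 corticotrope markers, 7 had a mean of at least 1, while Crhr1 was under 0.1; their summed signal was 894 to 905 at 0 h, 701 to 771 at 24 h, 754 to 766 at 48 h and 888 to 911 at 72 h. Pomc, the hormone precursor, made up most of that sum, and the single markers differed in direction. At 72 h, 2 of the 7 were called lower on the log2(signal + 1) scale. These were the granin gene Chgb, at 76.0% of its 0 h mean (limma adjusted p = 0.0292), and the glucocorticoid receptor gene Nr3c1, at 71.2% (limma adjusted p = 0.0440). Chga, another granin gene, stood at 78.7% (limma adjusted p = 0.0542), and Pomc at 107% (limma adjusted p = 0.626). Tbx19, Pcsk1 and Neurod1 stood at 125%, 122% and 118% of their 0 h means at 72 h, and limma called 0 of the 7 higher. Of the 7, 4 had a positive and 3 a negative difference at 72 h. Before adjustment, 5, 4 and 6 of the 7 had a limma p under 0.05 at 24, 48 and 72 h, as did 1269, 1010 and 1505 of all 9606 genes in the fit. Of those 9606 genes, 2.01% were called at 72 h, in either direction. The 72 h calls of Chgb and Nr3c1 were lost without any single 0, 48 or 72 h library (limma adjusted p of 0.0823 to 0.252) and with quantile scaling (0.166 and 0.0584).

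Of 4 melanotrope markers, Pax7 had a mean of at least 1, Pcsk2 and Oacyl had means of 0.1 to 1, and Drd2 was listed at 0. Pcsk2, a prohormone convertase gene, had signals of 0.325 and 0.294 at 0 h, 0.622 and 0.590 at 24 h, 0.802 and 0.710 at 48 h, and 0.845 and 0.822 at 72 h. Oacyl had signals of 0.0129 and 0.0171 at 0 h, 0.237 and 0.374 at 24 h, 0.438 and 0.483 at 48 h, and 0.618 and 0.635 at 72 h. Both were thus higher in every later library, and both were called higher at all 3 times on the log2(signal + 0.1) scale, with limma adjusted p = 0.0446, 0.0107 and 0.00425 for Pcsk2 and 0.0161, 0.00431 and 0.00134 for Oacyl. At 24 and 48 h both calls were lost without either 0 h library (limma adjusted p of 0.0688 to 0.358). The 24 h call was also lost without any other single library for Pcsk2, and without any single 48 or 72 h library for Oacyl, and both 48 h calls were lost without 48 h replicate 1 (limma adjusted p = 0.117 for Pcsk2 and 0.0584 for Oacyl). At 72 h Pcsk2 was not called without 0 h replicate 2 (0.0767), and Oacyl stayed called without any single library. The summed signal of the 4 markers, mostly Pax7, was 14.8 to 15.8 at 72 h, against 13.3 to 13.6 at 0 h. With 1 value per gene, RNA of the introduced ER-Pax7 and of the cells' own Pax7 cannot be told apart. The Pax7 signal and this sum are therefore no measure of melanotrope identity. In the log2(signal + 0.1) fit, 0.162%, 0.548% and 1.57% of all genes were called at 24, 48 and 72 h.

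All 6 catecholamine cell markers were under 0.1, with 2 at 0, and their summed signal ranged from 0.0664 to 0.232. Of 5 serotonin cell markers, Fev had a mean of at least 1 and the other 4, Tph1 and Tph2 among them, were at 0 or under 0.1. Of 5 mast cell markers, 4 were at 0. Kit alone gave 0.202 to 0.210 at 0 h, 0.476 to 0.515 at 24 h, 0.458 to 0.524 at 48 h and 0.489 to 0.554 at 72 h. It was called higher at 24, 48 and 72 h on the log2(signal + 0.1) scale (limma adjusted p = 0.0382, 0.0270 and 0.0103). Of all genes in that fit, 0.162%, 0.548% and 1.57% were called. Fits without single libraries were not looked at for Kit. Summed signals were 0.233 to 0.555 for 6 fibroblast markers and 0.561 to 0.736 for 6 immune markers. The part of these markers in the values of the monoamine genes was not tested. Across libraries, summed signal over all genes was 164236 to 178548. The sources used here give no read depth.

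At the genomic position of Ddc, 17 other genes of the tables lie within 500 kb, and 2 had a mean of at least 0.1. Fignl1, a gene of DNA repair on the same strand, averaged 2.88 ± 0.115 at 72 h and 3.15 ± 0.0849 at 0 h, and its log2(signal + 1) differences were 0.00, -0.03 and -0.09 at 24, 48 and 72 h (limma adjusted p = 0.983, 0.902 and 0.377). The antisense gene 1700042O10Rik, inside Ddc, had signals of 0.415 and 0.526 at 0 h, 0.122 and 0.257 at 24 h, 0.260 and 0.223 at 48 h, and 0.103 and 0.186 at 72 h. All its later libraries lay below both 0 h libraries, as those of Ddc did. Its log2(signal + 0.1) differences were -1.01, -0.73 and -1.23 (limma adjusted p = 0.247, 0.389 and 0.0805), and without either 24 h library the 72 h difference was called (adjusted p = 0.0402 and 0.0408 in limma).

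Of the exonic bases of Ddc, 26.9% lie within the span of 1700042O10Rik and 0 within its exons. The signal of 1700042O10Rik was 2.18% and 3.84% of that of Ddc in the 72 h libraries, against 3.11% and 4.22% in the 0 h libraries. No source used here says whether counting used strand. Reads from introns of the Ddc transcript that fall in exons of its antisense partner, or the reverse, therefore cannot be told apart from exon reads. Grb10, an imprinted gene beside Ddc, had a mean of 0.0244.

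**Figure D4:**
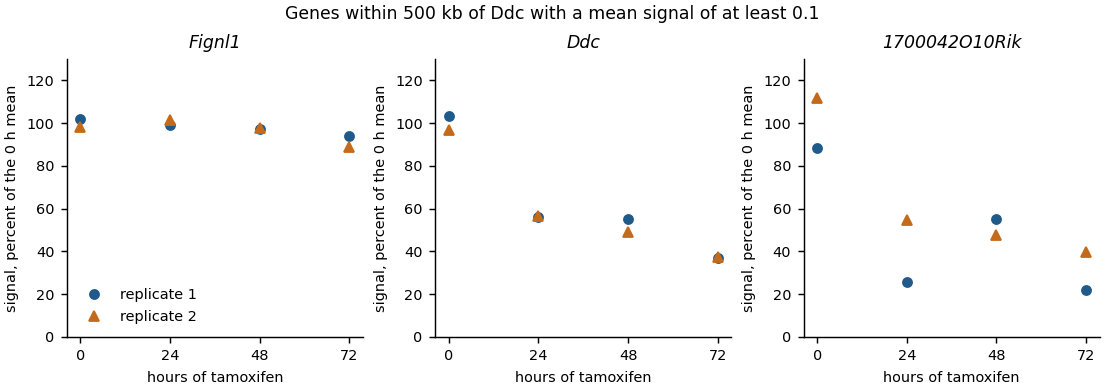
Signal of Ddc and of its neighbours within 500 kb that had a mean of at least 0.1, as a percent of each gene's 0 h mean, with a point per library against hours of tamoxifen. Fignl1 stays near its 0 h level, while Ddc and the antisense gene inside it lie lower at 24, 48 and 72 h.

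Of 19 transcription factor genes known from monoamine cells, 9 had a mean of at least 1, and among these Nr4a2, the orphan nuclear receptor of dopamine neurons that binds the Nr4a response element, was the only one called by limma on the log2(signal + 1) scale, and fell at all 3 times. Of all 9606 genes in that fit, 0.229%, 0.552% and 2.01% were called at 24, 48 and 72 h. Before adjustment, 4, 5 and 6 of the 9 had a limma p under 0.05 at these times, as did 1269, 1010 and 1505 of the 9606. The signals of Nr4a2 were 3.98 and 3.80 at 0 h, 1.69 and 1.91 at 24 h, 2.21 and 2.13 at 48 h, and 2.40 and 2.26 at 72 h (limma adjusted p = 0.00436, 0.00801 and 0.00685 at 24, 48 and 72 h). Unlike Ddc, it was lowest at 24 h. The calls were lost without either 0 h library (limma adjusted p of 0.0821 to 0.111), and at 48 and 72 h also without either library of that time. Nr4a3, of the same receptor family, had signals of 0.148 in both 0 h libraries, 0.114 and 0.174 at 24 h, 0.205 and 0.245 at 48 h, and 0.414 and 0.399 at 72 h. At 72 h it was called higher on the log2(signal + 0.1) scale, by 1.03 (limma adjusted p = 0.0268), the opposite direction to Nr4a2; this call was lost without any single 0, 48 or 72 h library (limma adjusted p of 0.0605 to 0.190). Insm1 and Fev, factors of neuroendocrine and serotonin cells, ranged from 5.21 to 6.48 and from 3.25 to 4.23. Foxa1, a factor of dopamine progenitors, averaged 3.35 ± 0.119 at 72 h and 4.13 ± 0.150 at 0 h (limma log2 difference -0.24, adjusted p = 0.0768). Gata2, a factor of serotonin neuron precursors, averaged 1.30 ± 0.215 at 72 h and 1.81 ± 0.00962 at 0 h (limma log2 difference -0.29, adjusted p = 0.126).

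The genes whose log2(signal + 1) followed that of Ddc most closely over the 8 libraries were sought among 9605 genes. They were Ppp1cc, a catalytic subunit of protein phosphatase 1 (Pearson r = 0.994), the calmodulin regulator Pcp4 (0.992), Gm49948 (0.986), Dbpht2 (0.983) and Pex5l, a subunit of pacemaker channels (0.982). None is a monoamine gene. Ddc had the steepest fall of the set: Ppp1cc averaged 9.67 at 72 h and 12.7 at 0 h, Gm49948 1.85 and 4.18, and Dbpht2 1.94 and 3.12 in the same order. The most opposite were Enpp2, which makes autotaxin (-0.996), Fetub, which makes fetuin B (-0.983), G6pdx, the first enzyme of the pentose phosphate pathway (-0.980), and the miRNA genes Mir3071 (-0.977) and Mir136 (-0.976), which lie at 1 place on opposite strands. These coefficients describe 8 libraries in 4 time groups, so genes that move with time score high in either direction.

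**Figure D5:**
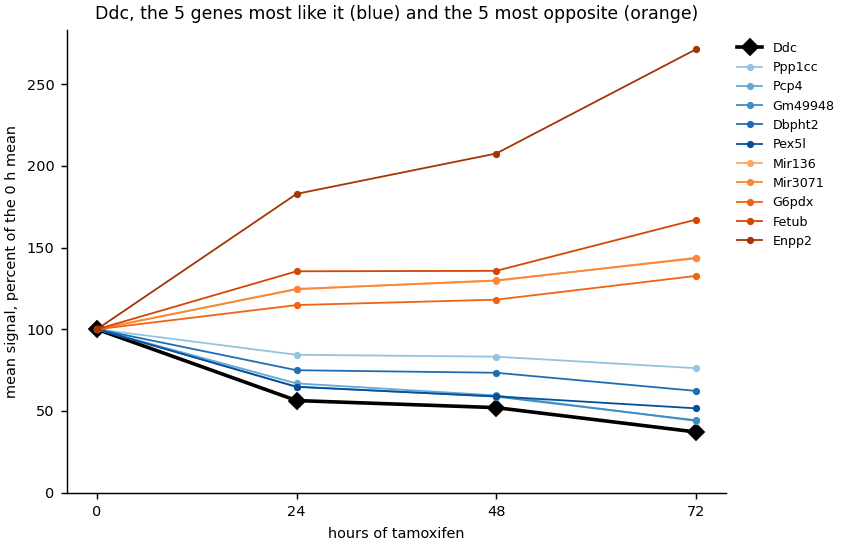
Mean signal at 0, 24, 48 and 72 h of tamoxifen, as a percent of the 0 h mean, for Ddc, the 5 genes with the highest and the 5 with the lowest correlation with it over 8 libraries. The genes most like Ddc share its step at 24 h and its further step at 72 h, and Ddc lies below each of them.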

How the data were processed

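RNA-seq tables for 8 libraries gave 1 normalized signal per gene. The deposited signal, as read from its values and columns, is read coverage per exonic base, scaled by the authors. Per the submitters' processing notes, the tools were HISAT2 2.2, SAMtools 1.12 and deepTools 3.5, with no roles stated, on mm10 (GRCm38). The scaling rule, counting tool and annotation release were not given in the sources used here; 54349 gene identifiers (98.1%) occur in GENCODE M21, all with the same coordinates. The labels' molecule field says genomic DNA, but the extraction protocol and series design name RNA. No read counts can be had, so counting error is not given, and overlapping genes may share reads.

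Groups and replicates came from the labels. One limma 3.58.1 fit (R 4.3.3, group only, intensity trend) used log2(signal + 1) for the 9606 genes with a mean of at least 1. A second used log2(signal + 0.1) for the 17871 genes with a mean of at least 0.1, and genes below that have values only. These scales understate changes of low genes. P-values were adjusted by Benjamini-Hochberg over all genes of a fit, at 0.05. Every adjusted p in the text is from these fits or, where a setting or a left-out library is named, from an alternative fit. It sets a difference against the spread between libraries, which may be technical. The fit was also run on simulated data with independent noise in each library. The libraries here were in part alike across groups, so that run does not show how the fit does on these data. Alternatives were the pseudocount, the filter, quantile and trimmed-mean scaling, a replicate block, fits of the 2 groups compared and leaving out each library.

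The members and lists were chosen with earlier results of these data known. Some genes of the lists are not reported here, whether called or not, and counts over a list leave them out. Named genes were all members, called pathway genes, up to 4 more per list by mean signal, the 5 genes most like and most opposite to Ddc, and neighbours within 500 kb with a mean of at least 0.1. Dbh, Slc6a2, Slc6a3, Slc6a4, Gad2, Nr4a3, Grb10 and the single marker genes were added after their values were seen. Promoter sequences were in the RefSeq table for 7 of the 9 genes.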

Additional observations from a re-analysis of the deposited data

Results flagged for a closer look

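Gch1 lay on opposite sides of its 0 h values at different times: both 24 h libraries were below both 0 h libraries, and both 72 h libraries were above them. The difference in log2(signal + 1) between 72 h and 24 h was 0.2817 (limma adjusted p = 0.185), with means of 2.28 at 72 h and 1.70 at 24 h; it did not pass the threshold. Hrh3, a histamine receptor gene, showed the same arrangement, with a log2(signal + 0.1) difference of 0.3364 between 72 h and 24 h (limma adjusted p = 0.205) and means of 1.01 at 72 h and 0.777 at 24 h. These came from 84 comparisons between later times over 28 genes.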

How the results depend on the processing

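The number of genes called depended on the setting more than the members did. Called genes were 22 at 24 h, 53 at 48 h and 193 at 72 h. Fits of only the 2 groups compared called 1 gene at 24 h and 111 at 48 h, the fit with a mean of at least 0.1 called 98 at 48 h, and no filter left 26 at 48 h and 55 at 72 h. Leaving out 1 library gave 2 to 104 genes at 24 h, 2 to 95 at 48 h and 9 to 320 at 72 h. By correlation of log2(signal + 1), only 2 of the 8 libraries, those at 0 h, were nearest to their own replicate. Each later library was nearest to a library of another later time, which limits comparisons among the later times. Replicate numbers were not shown to pair the libraries, and only 2 numbers exist. Between groups, the differences between replicates 1 and 2 correlated from -0.0163 (0 h with 72 h) to 0.402 (24 h with 48 h). With the replicate block, 18, 24 and 154 genes were called at 24, 48 and 72 h. Of the listed pathway genes, 0 were called at 24, 48 or 72 h in any of these fits, except that leaving out 1 library gave 0 to 1 calls at 72 h, the 1 being Pcbd1 without either 24 h library. The fall of Ddc in log2 with a pseudocount of 0.1 was -0.82 at 24 h and -1.41 at 72 h, and without 1 library ran from -0.79 to -0.70 at 24 h, from -0.93 to -0.78 at 48 h and from -1.31 to -1.22 at 72 h in log2(signal + 1). Gch1, Slc18a1, Slc18a2 and Maoa were called in none of these fits. Without 1 library the sign changed for Slc18a2 at 24 h (-0.0453 to 0.0832), Maoa at 24 h (-0.0283 to 0.0569) and Gch1 at 48 h (-0.0112 to 0.106). The calls of Nr4a2 at 24, 48 and 72 h were lost without a filter (limma adjusted p = 0.0619, 0.0784 and 0.0632), and at 24 h with only the 2 groups compared (0.0887). The log2(signal + 0.1) difference of Nr4a3 at 24 h was -0.0352, and -0.214 to 0.144 without 1 library.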

Other observations

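Receptors for monoamines were mostly silent in these cells. Of 32 listed dopamine, serotonin, adrenergic, histamine and trace amine receptor genes, 14 were listed at 0 and 15 more had a mean under 0.1. The other 3 were the serotonin-gated channel gene Htr3a, the histamine receptor gene Hrh3 and the serotonin receptor gene Htr2b. Htr3a averaged 1.18 ± 0.172 at 72 h and 0.882 ± 0.0753 at 0 h, Hrh3 averaged 1.01 ± 0.0311 at 72 h and 0.881 ± 0.0133 at 0 h, and Htr2b averaged 0.216 ± 0.00928 at 72 h and 0.131 ± 0.000373 at 0 h (SD, n = 2 each). All 3 had a positive difference at 72 h, and limma called 0 of them on the log2(signal + 0.1) scale, with 2 at an unadjusted p under 0.05 and a lowest adjusted p of 0.194. Of all 17871 genes in that fit, 9319 had a positive difference at 72 h, 2499 had an unadjusted limma p under 0.05 and 1.57% were called.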
